A study of Mus musculus with 4 samples.

Results

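The comparison set the liver of ob/ob mice on a Western diet containing 7-ketocholesterol (WD+7KC) against the liver of ob/ob mice on a control diet containing the same oxysterol (CD+7KC). Both groups received 7KC, so the groups compared differed by diet and not by 7KC. The genes described were the 11137 of 24346 gene symbols with at least 1 FPKM (a read count scaled for transcript length and for the mapped reads of the library) in either library. They came from 2 of the 4 libraries that were sequenced.

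The mice were male and homozygous for the ob mutation, so they lacked leptin and became obese on any diet. They were 6 weeks old when the diets began and were fed them for 4 weeks. Every diet contained cholesterol at 1%, and 7KC made up 0.01% of the diet in CD+7KC and WD+7KC, while CD and WD contained none. The control diet had corn oil as its fat and more casein, and the Western diet had cocoa butter in a larger amount and more sucrose, so that fat amount, fat source, sucrose and casein cannot be told apart here. Each group had 1 library, the number of mice behind a library was not stated, and no difference below has a replicate check or a p-value. WD and CD are given beside the main results as the same diet comparison without 7KC, made in 2 libraries that the main comparison did not use.

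7KC is a product of cholesterol oxidation that enters the body with processed food. The liver takes up dietary fat, sugar and sterols, stores or exports them as triglyceride and lipoproteins, turns cholesterol into bile acids, and clears foreign compounds through cytochrome P450 and conjugating enzymes. Its resident macrophages, the Kupffer cells, are joined in steatohepatitis by macrophages that take up lipid and express a characteristic set of genes for lipid handling and lysosomes.

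Total FPKM was 696062 in CD+7KC and 602059 in WD+7KC, against 715605 in CD and 699534 in WD. Steps between low FPKM values corresponded to about 1.1e+07 mapped fragments in CD+7KC and 1.21e+07 in WD+7KC, or 11 and 12.1 reads per kilobase of transcript at 1 FPKM. Alb, which encodes albumin, topped every library (31205 FPKM in CD+7KC and 30014 in WD+7KC). Among 13 hepatocyte markers the median log2 fold change was -0.16 (0.05 after rescaling to equal sums), and 4 stood higher and 9 lower with the Western diet. Of 12 exocrine pancreas genes, 9 were listed at 0 in all 4 libraries, and the summed FPKM of the list was 5.86 in CD+7KC and 8.62 in WD+7KC, nearly all of it from Cela1 (5.73 and 8.03). Of 8 fat tissue markers, Lep and Plin1 were listed at 0 throughout, but the sum was 3325 in CD+7KC and 960.4 in WD+7KC, most of it from Car3, which the liver also makes. Rn45s, the ribosomal RNA precursor, stood at 4079 FPKM in CD+7KC and 436 in WD+7KC, with 3029.8 in CD and 771 in WD. Lars2, a protein-coding gene for a mitochondrial tRNA synthetase, had 3291 and 579.8 FPKM. The sum of these with the noncoding RNAs Malat1, Neat1, Rpph1 and Rmrp, 6 genes chosen after their values were seen, was 7499 FPKM in CD+7KC and 1062 in WD+7KC (4935 in CD and 1694 in WD), and its part in the results below was not tested.

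Differences are given as log2 of the ratio of FPKM + 0.1, WD+7KC relative to CD+7KC, and stand in parentheses after the FPKM values. Where 2 FPKM values are given without a library, the first is CD+7KC and the other WD+7KC. The pseudocount makes changes of weakly expressed genes look smaller than they are. The log2 fold change was above 1 for 692 genes (6.21% of the 11137) and below -1 for 351 genes (3.15%). A value above 0 was found for 48.3% of genes and the median was -0.02, so the distribution was centred near 0 with a longer side toward higher values in WD+7KC. Its 5th and 95th percentiles were -0.80 and 1.12. The centre depended on the scaling: after rescaling to equal sums (TPM) the median was 0.19, 989 genes were above 1 and 242 below -1, and 80.3% of these calls were on the higher side against 66.3% with the deposited values. A difference smaller than that shift has no fixed direction, and the counts of higher and lower list members below include such differences. Each such count stands beside the shares of all genes: 48.3% above 0, 51.7% below 0, 6.21% above 1 and 3.15% below -1.

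The higher and the lower genes differed in abundance. Among the 1632 genes with at least 50 FPKM in either library, 53 (3.25%) were above 1 and 97 (5.94%) below -1. Among the 9505 genes under 50 FPKM, 639 (6.72%) were above 1 and 254 (2.67%) below -1. Highly expressed genes past the threshold were therefore mostly lower in WD+7KC, and genes of low abundance mostly higher. The scatter of all genes by library shows both sides.

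**Figure D1:**
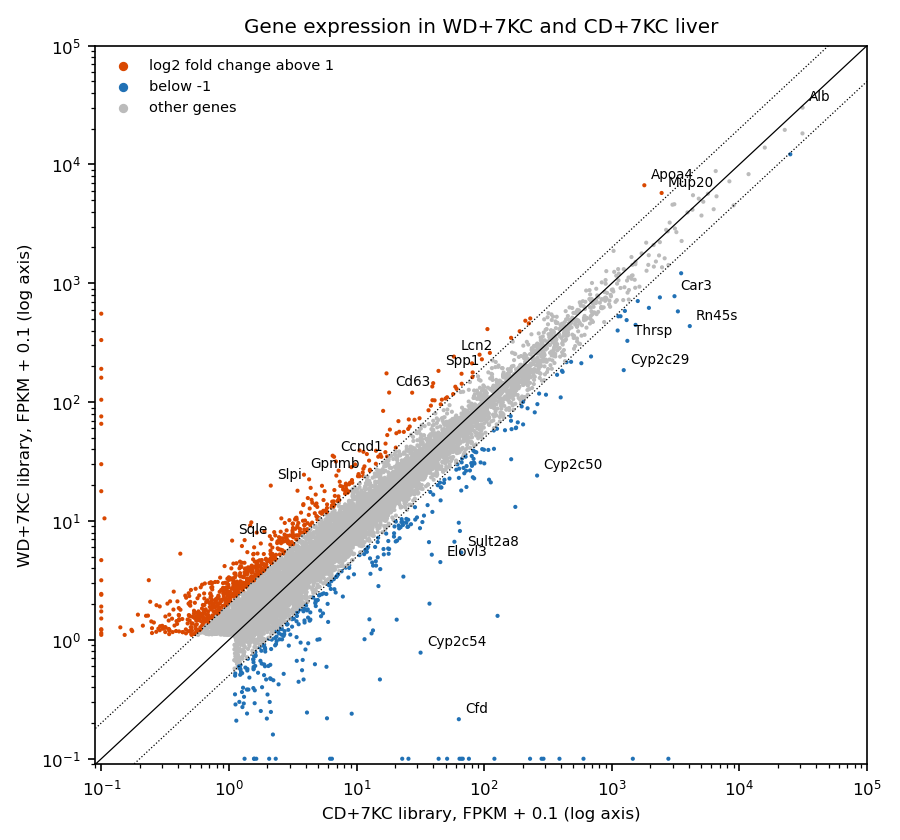
Each point is 1 of 11137 genes, with FPKM + 0.1 in the CD+7KC library on the x axis and in the WD+7KC library on the y axis, both on log axes; the solid line marks equal values and the dotted lines 2-fold differences. Orange marks the 692 genes above 1 and blue the 351 below -1 on the log2 scale; the points along the left and lower edges are genes listed at or near 0 in 1 library.

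Drug-metabolizing enzymes were mostly lower in WD+7KC. Of 29 cytochrome P450 genes of families 1 to 3 with at least 1 FPKM, 28 were lower, 15 of them below -1, against 3.15% of all genes. Their median log2 fold change was -1.01, beside -0.02 for all genes, and the summed FPKM of all 34 listed genes was 13427 in CD+7KC and 5898 in WD+7KC. In 21 of the 29, both WD libraries were lower than both CD libraries, which held for 28.6% of all genes. In WD relative to CD the median of the same 29 genes was -0.46. The hepatocyte markers did not differ to that extent, with a median of -0.16 and 1 of 13, G6pc, below -1. In bulk tissue, fewer cells of a type and less RNA per cell cannot be told apart, here and in each result below.

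The Cyp2c enzymes, which hydroxylate drugs, steroids and fatty acids, included the member with the lowest log2 fold change. Cyp2c54, on chromosome 19 (chr19:40037940-40073827, GRCm38), had 31.6 FPKM in CD+7KC and 0.681 in WD+7KC, with 55.2 in CD and 1.15 in WD. Its log2 fold change was -5.34 with a 95% counting interval of -6.46 to -4.76. Such intervals are exact (Clopper-Pearson) intervals of the ratio of estimated reads and cover counting error only, not the variation between mice. Cyp2c50 had 259.6 FPKM in CD+7KC and 24 in WD+7KC, against 291 in CD and 47.8 in WD (-3.43). Cyp2c29, the most abundant of them, had 1239 FPKM in CD+7KC and 186 in WD+7KC, against 1308 in CD and 243 in WD (-2.74). Cyp2c37 had 58.3 FPKM in CD+7KC and 6.59 in WD+7KC, against 35.3 in CD and 12 in WD (-3.13). Each of these 4 enzymes was lower in both WD libraries than in both CD libraries. Other family members were lower to differing extents. Cyp2c44 had 72.1 FPKM in CD+7KC and 26.4 in WD+7KC (-1.45), Cyp2c70 had 149 and 86.2 (-0.79) and Cyp2c38 had 54.4 and 39.0 (-0.48). The differences were small for Cyp2c67 (79.6 and 77.0 FPKM in CD+7KC and WD+7KC, -0.05) and Cyp2c68 (72.3 and 60.7, -0.25). Near-identical members of this cluster may share reads, so the split between single members is uncertain.

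The promoters of Cyp2c29, Cyp2c37 and Cyp2c50 are shown because these genes of the same chromosomal cluster each lay below -1. Other Cyp2c genes lie between them, among them Cyp2c67 and Cyp2c68. They are the 250 bases upstream of the transcription start, read 5′ to 3′ on the plus strand of chromosome 19, from RefSeq on GRCm38.p6. Capitals mark TTTATCAGCA and GATTAGTCAA, the 2 longest runs that all 3 share, each of 10 bases and found by comparing these promoters.
Cyp2c29, chr19:39286835-39287084: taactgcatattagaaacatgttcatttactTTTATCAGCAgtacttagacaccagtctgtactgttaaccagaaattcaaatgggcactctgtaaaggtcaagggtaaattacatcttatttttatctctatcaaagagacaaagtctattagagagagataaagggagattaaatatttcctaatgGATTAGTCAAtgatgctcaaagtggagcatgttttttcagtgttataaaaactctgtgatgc
Cyp2c37, chr19:39992174-39992423: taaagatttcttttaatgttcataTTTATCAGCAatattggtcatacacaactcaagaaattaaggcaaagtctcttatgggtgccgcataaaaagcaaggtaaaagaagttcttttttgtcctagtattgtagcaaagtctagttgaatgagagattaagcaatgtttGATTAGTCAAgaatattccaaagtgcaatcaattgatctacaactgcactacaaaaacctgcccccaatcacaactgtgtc
Cyp2c50, chr19:40089429-40089678: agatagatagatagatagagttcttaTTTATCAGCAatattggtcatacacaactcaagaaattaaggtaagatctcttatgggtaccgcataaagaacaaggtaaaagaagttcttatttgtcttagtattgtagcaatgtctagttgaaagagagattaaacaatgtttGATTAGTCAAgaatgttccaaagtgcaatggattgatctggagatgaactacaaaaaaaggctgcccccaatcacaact
Aligned with gaps, the Cyp2c37 and Cyp2c50 promoters were 84.3% identical, and the Cyp2c29 promoter was 54.5% identical to that of Cyp2c37 and 55.9% to that of Cyp2c50. On either strand, TTTATCAGCA occurred in 14 of 32851 promoters of this length (0.0426%) and GATTAGTCAA in 10 (0.0304%), and neither in a P450 promoter of the list other than these 3 of 30. The matches are a description of the sequences and name no factor.

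Cyp2b10, the P450 most often used as a readout of the nuclear receptor CAR, had 64.4 FPKM in CD+7KC and 8.14 in WD+7KC, against 32.7 in CD and 11 in WD (-2.97). The gene for CAR itself, Nr1i3, had 72.5 FPKM in CD+7KC and 19.2 in WD+7KC, with 45.6 in CD and 29.4 in WD (-1.91). Nr1i2, which encodes the related receptor PXR, had 42.9 and 34.5 FPKM (-0.31). The 2 WD libraries were thus the lowest for Cyp2b10 and Nr1i3, while Nr1i2 differed little among the libraries. Cyp3a11, the main CYP3A of mouse liver, had 3491 FPKM in CD+7KC and 1214 in WD+7KC, against 3735 in CD and 2724 in WD (-1.52). Cyp1a2, which metabolizes caffeine, had 119 FPKM in CD+7KC and 40.4 in WD+7KC (-1.56; 74.2 in CD and 44.1 in WD). For Cyp3a11, WD+7KC stood apart from the other 3 libraries, whereas for Cyp1a2 both WD libraries were low and CD+7KC was the highest. Cyp2a4, a steroid hydroxylase, was the only member of the 29 that was higher, with 115 FPKM in CD+7KC and 193 in WD+7KC (0.75; 30.2 in CD and 157 in WD).

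**Figure D2:**
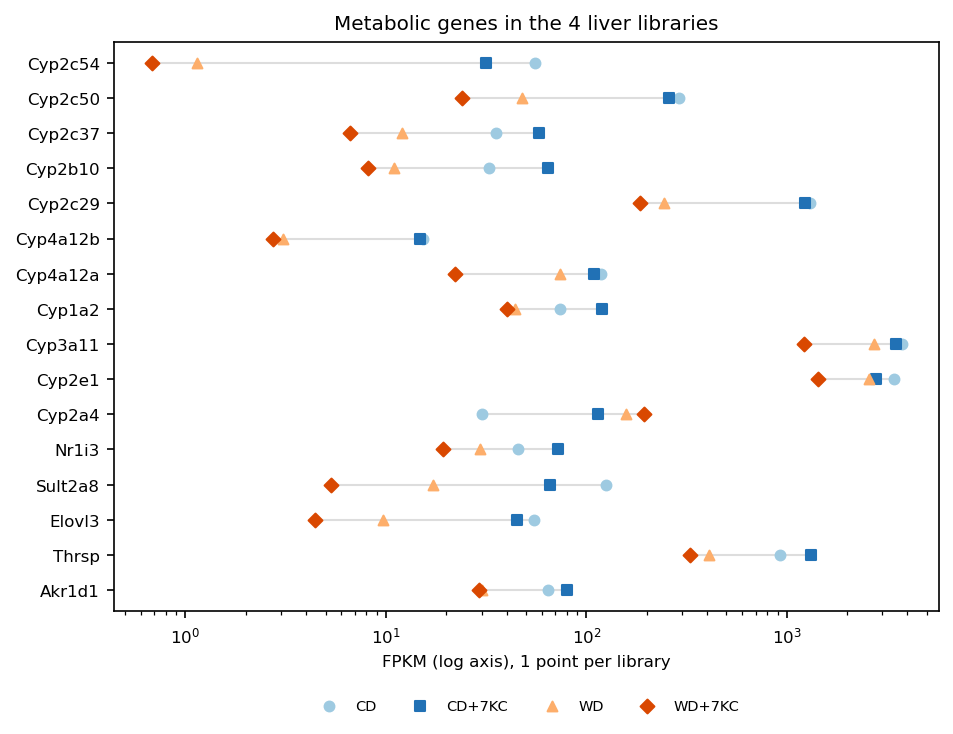
FPKM on a log axis for 16 metabolic genes, 1 point per library; circles are CD, squares CD+7KC, triangles WD and diamonds WD+7KC. Cyp2a4 is the only gene shown with its highest value in WD+7KC, and for Cyp2e1 the WD value lies near the CD+7KC value while WD+7KC lies below.

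The conjugating enzymes of phase 2 metabolism followed the P450s in count. Of 35 glutathione, glucuronide and sulfate transferases with at least 1 FPKM, 30 were lower, 10 below -1 and none above 1, and the median was -0.75. Among all genes 51.7% were lower and 3.15% below -1. In 22 of the 35, both WD libraries were lower than both CD libraries, against 28.6% of all genes. In WD relative to CD the median was -0.38, with 12 higher and 23 lower. The summed FPKM of the list was highest in CD+7KC (22531), with 13673 in WD+7KC, 17367 in CD and 16426 in WD. Gstm1 had 6277 FPKM in CD+7KC and 4193 in WD+7KC (-0.58), but 2798 in CD and 4880 in WD. The sulfotransferases of the Sult2a family, which sulfate hydroxysteroids and bile acids, included the lowest log2 fold change of the list. Sult2a2 had 6.10 FPKM in CD+7KC and was listed at 0 in both WD libraries. Sult2a7 had 5.77 FPKM in CD+7KC and 0.119 in WD+7KC, which rested on about 1.0 read, with a counting interval of the log2 ratio of -10.93 to -3.04. Sult2a8, named after its values were seen, had 66.1 FPKM in CD+7KC and 5.33 in WD+7KC, against 125 in CD and 17.2 in WD (-3.61). Sult2a2, Sult2a7 and Sult2a8 were each lower in both WD libraries than in both CD libraries. Mgst1, a microsomal glutathione transferase and the most abundant member, had 9002 FPKM in CD+7KC and 4521 in WD+7KC (-0.99). Sult1c2 was the member with the highest log2 fold change, at 3.59 and 6.65 FPKM (0.87). Carboxylesterases, which cleave esters and triglyceride, were added after the values were seen: Ces2a had 163 FPKM in CD+7KC and 33.0 in WD+7KC (-2.30), and Ces3a had 397 and 109 (-1.86). Ces3b had 31.3 and 8.60 FPKM (-1.85). The more abundant Ces1d had 554 and 310 FPKM (-0.84) and did not pass -1.

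Genes whose liver expression depends on sex and growth hormone did not follow one direction. Of 15 male-biased genes with at least 1 FPKM, 4 were higher and 11 lower (2 above 1 and 7 below -1), and the median was -0.90, close to -0.86 in WD relative to CD. Elovl3, which elongates very long fatty acids, had 45.2 FPKM in CD+7KC and 4.41 in WD+7KC, against 54.6 in CD and 9.71 in WD (-3.33, interval -3.68 to -3.04). Serpina1e, an α1-antitrypsin, had 23.2 FPKM in CD+7KC and 3.30 in WD+7KC, but 143 in CD and 8.77 in WD. Both genes were lower in both WD libraries than in both CD libraries, and for Serpina1e CD was far above CD+7KC. Of 12 female-biased genes, 5 were higher and 7 lower (2 above 1 and 6 below -1), and their median was -0.96 in this comparison and 0.06 in WD relative to CD. Among the members with at least 5 FPKM the median was 0.42, so the direction of this list rests on its weakly expressed members. Of the listed genes, Cyp17a1, a steroid hydroxylase and lyase, was higher (21.2 FPKM in CD+7KC and 69.1 in WD+7KC, 1.70) and Cyp2b13 lower (38.8 and 5.11, -2.90).

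The major urinary proteins, pheromone carriers secreted by the liver, are a family of near-identical genes whose reads cannot be assigned with confidence. Of 13 with at least 1 FPKM, 11 were below -1 and 1, Mup20, was above 1. Mup20 alone had 2454 FPKM in CD+7KC and 5747 in WD+7KC (1.23), against 2754 in CD and 8315 in WD. Summed over all listed Mup genes, FPKM was 4167 in CD+7KC and 6490 in WD+7KC. Without Mup3, Mup20 and Mup21, the 3 most abundant, the sum was 71.8 in CD+7KC and 6.11 in WD+7KC (84.8 in CD and 10.3 in WD). The family total and the sum of the less abundant members thus differed in opposite directions.

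Bile acid synthesis, the route by which the liver removes cholesterol, was lower in each of its 13 listed enzymes, with a median of -0.77 and 1 member below -1 (-0.40 in WD relative to CD, also with 13 of 13 lower). A value below 0 was found for 51.7% of all genes, and the smallest of the 13 differences, in Amacr (-0.15), lies within the shift of the scaling. Akr1d1, the reductase that sets the shape of the sterol nucleus, had 80.1 FPKM in CD+7KC and 29.0 in WD+7KC, against 64.7 in CD and 30.2 in WD (-1.46, interval -1.58 to -1.35). Cyp7a1, the rate-limiting enzyme, had 11.5 FPKM in CD+7KC and 6.53 in WD+7KC (-0.80), with 18.1 in CD and 13.1 in WD. Cyp8b1, which makes cholic acid, had 47.3 and 38 FPKM (-0.31) with 186 in CD and 104 in WD. Akr1d1 separated by diet, whereas for Cyp7a1 the WD value lay above CD+7KC and for Cyp8b1 both libraries without 7KC were the higher ones. Of 13 bile acid and organic anion transporters, 11 were lower, with a median of -0.56. The lowest was Slc22a7, an organic anion carrier (1.86 and 0.364 FPKM, -2.08), and the highest Slco1a4 (4.75 and 10.9 FPKM, 1.18). The bile acid uptake carrier Slc10a1 had 198 FPKM in CD+7KC and 111 in WD+7KC (-0.83).

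Cholesterol synthesis genes were mostly higher, by small amounts. Of 20 enzymes, 15 were higher, 2 of them above 1, and the median was 0.26, the same as in WD relative to CD (0.26). Sqle, which performs the first oxygenation step on squalene, had 0.960 FPKM in CD+7KC and 6.74 in WD+7KC, with 1.18 in CD and 3.90 in WD (2.69, interval 2.23 to 3.45). Fdps, which makes farnesyl diphosphate, had 81.1 FPKM in CD+7KC and 178 in WD+7KC (1.13; 86.7 in CD and 144 in WD). Both genes were higher in both WD libraries than in both CD libraries. Ebp, a sterol isomerase, was the lowest at 89.6 and 64.3 FPKM (-0.48). Of 8 further genes regulated by SREBP2 with at least 1 FPKM, 8 were higher, with a median of 0.27. Targets of LXR, the receptor for oxysterols, were split, with 6 of 13 higher, 7 lower and a median of -0.06 (0.15 after rescaling to equal sums). The canalicular sterol exporter subunits Abcg5 (86.2 and 43.9 FPKM, -0.97) and Abcg8 (53.7 and 28.5, -0.91) were lower. Abcg1, which exports sterols from macrophages, was higher (1.96 and 4.58 FPKM, 1.18).

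**Figure D3:**
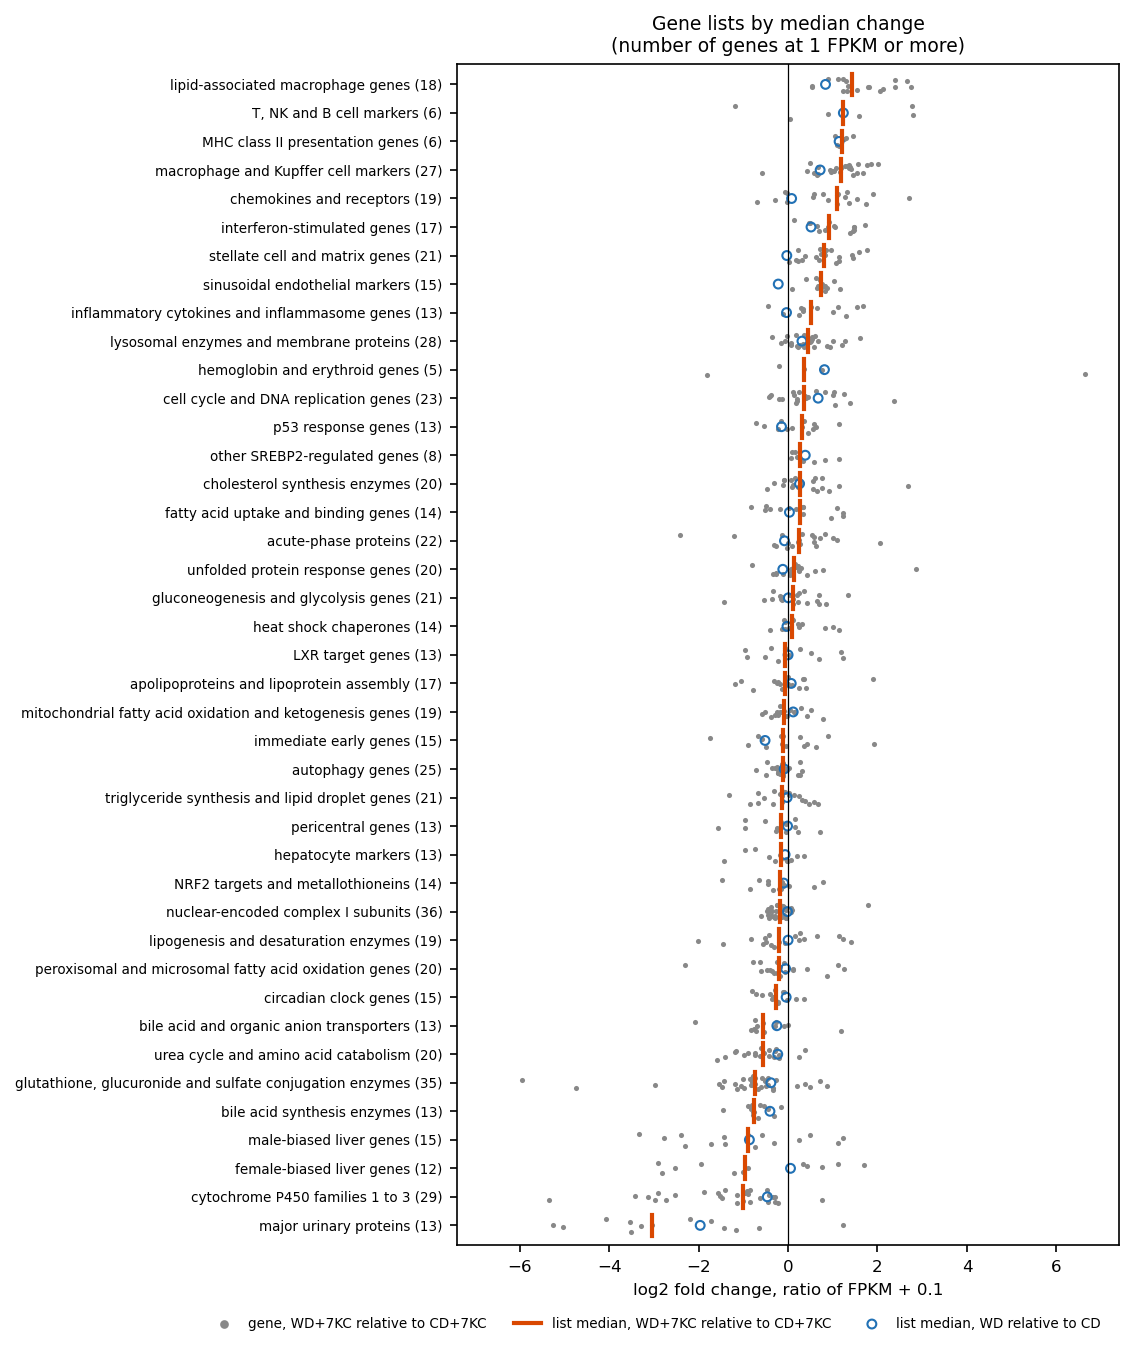
Log2 fold change on the x axis for each listed gene with at least 1 FPKM in either library (grey points), for lists with at least 5 such genes; orange bars are list medians in WD+7KC relative to CD+7KC and open circles list medians in WD relative to CD. Lipid-associated macrophage genes have the highest median (1.44) and major urinary proteins the lowest (-3.05).

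Fatty acid synthesis genes did not go one way. Of 19 lipogenesis and desaturation genes, 8 were higher and 11 lower (3 above 1, 2 below -1), with a median of -0.20. The desaturases of polyunsaturated fatty acids were higher: Fads1 had 80.2 FPKM in CD+7KC and 212 in WD+7KC (1.40; 75.5 in CD and 184 in WD), and Fads2 had 229 and 506 (1.14). Thrsp, a lipogenic protein driven by carbohydrate and thyroid hormone, had 1323 FPKM in CD+7KC and 328 in WD+7KC, against 928 in CD and 409.7 in WD (-2.01, interval -2.06 to -1.97). Mlxipl, which encodes the carbohydrate-responsive factor ChREBP, had 63.2 and 22.9 FPKM (-1.46). Fads1, Fads2, Thrsp and Mlxipl all separated by diet in the 4 libraries. Among the synthesis enzymes measured by qRT-PCR in the study, Scd1 had 11776 FPKM in CD+7KC and 8275 in WD+7KC (-0.51), Fasn had 119 and 88.6 (-0.43), and Acaca had 36.9 and 35.5 (-0.06). Lipid droplet and triglyceride synthesis genes had a median of -0.13 over 21 genes (0.08 after rescaling to equal sums), with 0 above 1 and 1 below -1. That gene was Cidea, a droplet fusion protein (99.5 and 39.7 FPKM, -1.32), and Plin2, the main coat protein of hepatic droplets, had 629 and 868 FPKM (0.47).

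Genes of fatty acid oxidation differed little. None of 19 mitochondrial genes passed 1 in either direction, 7 stood above and 12 below 0, and the median was -0.10 with the deposited values and 0.11 after rescaling to equal sums. Cpt1a, the gate for long-chain fatty acids into mitochondria, had 92.5 FPKM in CD+7KC and 132 in WD+7KC (0.51), with 108 in CD and 155 in WD. Of 20 peroxisomal and microsomal genes, 14 were lower, with a median of -0.21, close in size to the shift of the scaling. In this list 2 genes were above 1 and 1 below -1. The 2 were Cyp4a31 (3.83 and 9.18 FPKM, 1.24) and Abcd2 (3.40 and 7.48, 1.11). The 1 below -1 was Cyp4a12a, a fatty acid hydroxylase, with 109 FPKM in CD+7KC and 22.2 in WD+7KC (-2.29; 119 in CD and 73.9 in WD). The urea cycle and amino acid catabolic enzymes were lower in 18 of 20, 4 of them below -1, with a median of -0.57 (-0.23 in WD relative to CD). Among all genes 51.7% were lower and 3.15% below -1. Hpd, a tyrosine-degrading enzyme, had 1305 FPKM in CD+7KC and 489.7 in WD+7KC (-1.41), and Otc, of the urea cycle, had 269 and 118 (-1.19). Among apolipoproteins, Apoa4, made when the liver is loaded with fat, had 1797 FPKM in CD+7KC and 6673 in WD+7KC (1.89; 3014 in CD and 5653 in WD), and Apoc1 had 25009 and 12154 (-1.04). The list of 17 had a median of -0.07 (0.14 after rescaling) and 8 members higher.

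Macrophage genes were mostly higher in WD+7KC. Of 27 macrophage and Kupffer cell markers, 26 were higher in WD+7KC, 17 of them above 1 against 6.21% of all genes, with a median of 1.18. Their summed FPKM was 473 in CD+7KC and 1008 in WD+7KC, with 316 in CD and 529 in WD. This sum differed in the same direction as the lysosomal, class II and chemokine genes below, and its part in them was not tested. Cd68, a lysosomal macrophage protein, had 11.2 FPKM in CD+7KC and 38.1 in WD+7KC, against 8.11 in CD and 20.7 in WD (1.76). Adgre1, which encodes F4/80, had 5.41 FPKM in CD+7KC and 14.9 in WD+7KC, with 2.92 in CD and 5.03 in WD (1.45). WD+7KC was the highest library for both genes, and for Adgre1 the WD library did not exceed CD+7KC. Markers of Kupffer cells differed in the size of the change. Clec4f had 40.2 and 64.5 FPKM (0.68), Vsig4 26.2 and 39.2 (0.58) and Timd4 2.48 and 3.54 (0.50), each below the list median. Cd5l, of the same list, was above that median, with 66.3 FPKM in CD+7KC and 173 in WD+7KC (1.38). The scavenger receptor gene Cd163 was the only lower marker (2.91 and 1.91 FPKM, -0.58). Ly6c2, a monocyte marker, had the highest log2 fold change (2.0) at 0.305 and 1.52 FPKM, on about 2.1 and 11.4 reads, with an interval of 0.12 to 5.54. Apart from the genes picked by rule (given with the processing), list members named here, above and below were chosen after their values were seen.

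Genes of lipid-associated macrophages were higher without exception. All 18 were above 0 and 15 above 1, against 48.3% and 6.21% of all genes, and the median was 1.44. In 17 of 18, both WD libraries were above both CD libraries, which held for 26.2% of all genes. Gpnmb, a lysosomal glycoprotein of lipid-laden macrophages (chr6:49036546-49070929), had 3.77 FPKM in CD+7KC and 24.4 in WD+7KC, with 2.25 in CD and 11.2 in WD (2.66, interval 2.44 to 2.96). Trem2, the lipid receptor of these cells, had 2.64 FPKM in CD+7KC and 9.52 in WD+7KC, with 2.92 in CD and 6.46 in WD (1.81). Cd63, a tetraspanin of lysosomes, had 17.9 FPKM in CD+7KC and 120.2 in WD+7KC, with 26.2 in CD and 127 in WD (2.74). For Cd63 the 2 WD libraries were alike, whereas for Gpnmb WD+7KC was above WD. Lgals3, a galectin, had 16.1 and 84.3 FPKM (2.38), Mmp12, an elastase, 3.35 and 17.9 (2.38), and Spp1, osteopontin, 43.7 and 183 (2.06). Spp1 is also made by bile duct cells and Cd63 by many cells, so the list is not specific to macrophages. The lysosomal enzymes and membrane proteins were higher in 24 of 28, with a median of 0.44 and 4 above 1 (24 of 28 and 0.31 in WD relative to CD), led by Laptm5 (9.65 and 29.8 FPKM, 1.62), which is made by blood cells.

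**Figure D4:**
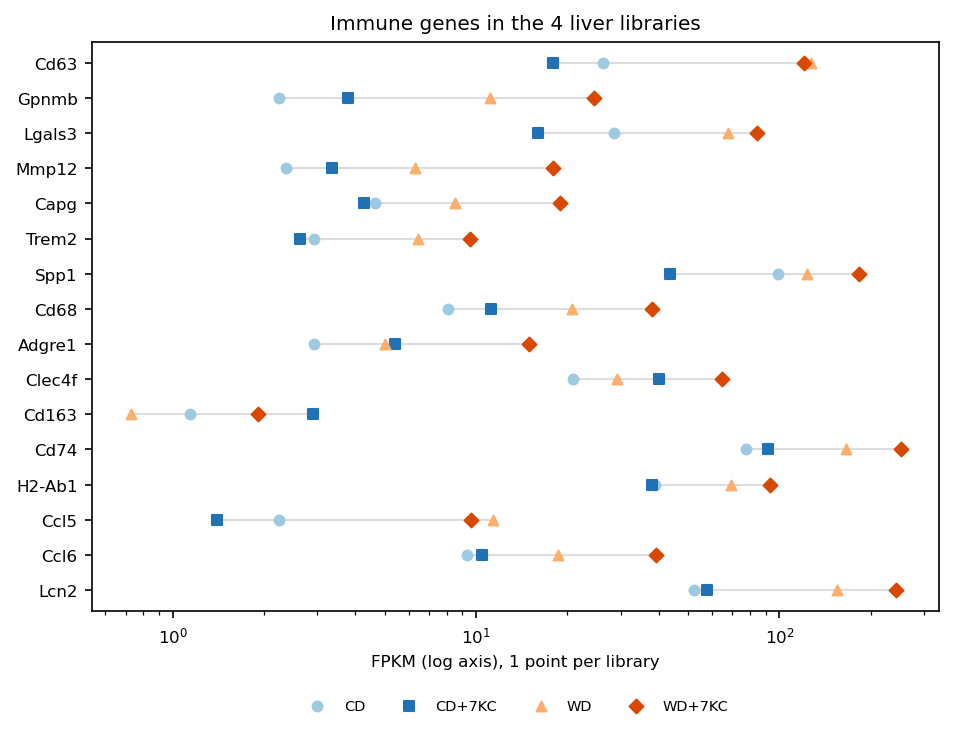
FPKM on a log axis for 16 immune genes, 1 point per library; circles are CD, squares CD+7KC, triangles WD and diamonds WD+7KC. WD+7KC is the highest library for 13 of the 16, and Cd163 is the only gene shown with a lower value in WD+7KC than in CD+7KC.

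Antigen presentation on MHC class II was higher in each of the 6 genes with at least 1 FPKM, all 6 above 1, with a median of 1.20, close to the 1.14 of WD relative to CD. For all genes the share above 1 was 6.21%. Cd74, the invariant chain, had 91.9 FPKM in CD+7KC and 251 in WD+7KC, against 77.4 in CD and 166 in WD (1.45). H2-Aa had 60.7 FPKM in CD+7KC and 129 in WD+7KC (1.09), H2-Eb1 23.4 and 56.1 (1.26) and H2-DMb1 5.29 and 11.7 (1.13). Of the other 4 listed genes, H2-Ob was lower (0.403 and 0.299 FPKM, -0.33), and all 4, among them the transactivator Ciita (0.329 and 0.678 FPKM), stayed under 1 FPKM in both libraries. The upstream 250 bases of 3 of these genes are shown because the 6 class II genes with at least 1 FPKM were all higher. They come from RefSeq on GRCm38.p6 and are read 5′ to 3′ on the gene's strand, with the letters TGATTGG, which contain the Y box core bound by NF-Y, in capitals.
H2-Aa, chr17:34287824-34288073, minus strand: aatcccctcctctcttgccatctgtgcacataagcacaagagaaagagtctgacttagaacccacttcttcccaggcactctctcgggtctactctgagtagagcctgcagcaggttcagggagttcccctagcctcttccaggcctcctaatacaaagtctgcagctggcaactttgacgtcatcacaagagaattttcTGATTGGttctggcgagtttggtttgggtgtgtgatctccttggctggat
H2-Eb1, chr17:34305617-34305866, plus strand: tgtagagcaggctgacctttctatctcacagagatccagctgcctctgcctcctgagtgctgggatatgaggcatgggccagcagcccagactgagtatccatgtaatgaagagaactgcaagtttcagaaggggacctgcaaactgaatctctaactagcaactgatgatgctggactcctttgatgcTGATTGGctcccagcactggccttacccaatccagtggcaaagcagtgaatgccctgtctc
H2-DMb1, chr17:34152941-34153190, plus strand: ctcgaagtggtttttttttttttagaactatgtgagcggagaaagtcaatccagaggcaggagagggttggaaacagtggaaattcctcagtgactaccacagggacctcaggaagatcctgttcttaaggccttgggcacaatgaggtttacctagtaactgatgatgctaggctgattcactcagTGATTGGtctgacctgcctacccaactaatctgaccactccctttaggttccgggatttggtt
These letters begin 50 to 63 bases before the start in the 3 promoters. On either strand, they occurred in 6 of the 7 listed class II genes that have an entry (85.7%) and in 7.23% of all 32851 promoters, against 1 of 12 lipid-associated macrophage genes (8.33%). Those 6 are the 3 shown and H2-DMb2, H2-Oa and H2-Ob, which stayed under 1 FPKM in both libraries, so they are not the 6 genes counted as higher. A match is a description of the letters and not evidence of binding in these livers.

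Chemokine genes were mostly higher in WD+7KC. Of 19 chemokines and receptors with at least 1 FPKM, 14 were higher and 10 of them above 1 with 7KC in both diets, with a median of 1.09, while in WD relative to CD the median was 0.08, with 11 higher and 8 lower, 1 above 1 and 4 below -1. The difference between these medians was not tested. Among all genes 48.3% were higher and 6.21% above 1 with 7KC in both diets. Ccl5, which attracts T cells and monocytes, had 1.40 FPKM in CD+7KC and 9.64 in WD+7KC, with 2.24 in CD and 11.4 in WD (2.70, interval 1.48 to 4.53). Ccl6 had 10.4 FPKM in CD+7KC and 39.1 in WD+7KC, with 9.37 in CD and 18.6 in WD (1.90). Ccl2, the main monocyte attractant, had 7.4 FPKM in CD+7KC and 11 in WD+7KC (0.56), but 14.5 in CD and 6.52 in WD. Ccl5 separated by diet, Ccl6 was highest in WD+7KC, and Ccl2 was highest in CD. The neutrophil attractant Cxcl1 was the lowest of the list (7.19 and 4.42 FPKM, -0.69).

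Interferon-stimulated genes were higher in 17 of 17, 8 above 1, with a median of 0.91 (0.51 in WD relative to CD). Among all genes 48.3% were higher and 6.21% above 1. Ifit2, an antiviral RNA-binding protein, had the highest log2 fold change (1.11 and 3.90 FPKM, 1.72). Inflammatory cytokine and inflammasome genes were higher in 11 of 13, with a median of 0.51 (-0.03 in WD relative to CD). The highest was Vcam1, a leukocyte adhesion molecule, with 5.52 FPKM in CD+7KC and 17.7 in WD+7KC (1.67; 4.49 in CD and 9.71 in WD). Of the classical cytokines, Tnf and Il6 were barely detected, while Il1b passed 1 FPKM. Tnf had 0.129 FPKM in CD+7KC on about 2.0 reads and 0.397 in WD+7KC on about 6.9, and Il6 was listed at 0 in all 4 libraries. Il1b had 2.02 and 2.42 FPKM (0.25, interval -0.53 to 1.04). Of 21 T, NK and B cell markers, 6 had at least 1 FPKM, and the summed FPKM of the 18 listed genes in the table was 7.10 in CD+7KC and 12.5 in WD+7KC. Of the 6, 3 were above 1 and 1 below -1. Gzma, a granzyme of cytotoxic cells, had 0.270 and 2.45 FPKM on about 2.0 and 20.1 reads, with a counting interval of the log2 ratio of 1.14 to 6.33. The B cell marker Cd79a went the other way, at 1.45 and 0.586 FPKM on about 20.1 and 8.9 reads (-1.18, interval -2.61 to -0.09).

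Acute-phase and secreted defence proteins of hepatocytes were mixed, with 15 of 22 higher, 3 above 1 and 2 below -1, and a median of 0.25. Lcn2, lipocalin 2, a protein that binds bacterial iron carriers, had 57.8 FPKM in CD+7KC and 241 in WD+7KC, with 52.3 in CD and 155 in WD (2.06, interval 1.92 to 2.21). The neutrophil gene S100a8 had 10.3 and 11.1 FPKM (interval -0.56 to 0.87), and the neutrophil granule gene Mpo was listed at 0 in all 4 libraries. Orm3, an orosomucoid, was the lowest (113 and 21.0 FPKM, -2.41). Slpi, a protease inhibitor of epithelia and phagocytes, had 2.03 FPKM in CD+7KC and 19.7 in WD+7KC, with 2.44 in CD and 8.99 in WD (3.22, interval 2.53 to 4.17). Sprr1a, a cornified envelope protein that is also produced in stressed tissue, had 17.1 FPKM in CD+7KC and 174 in WD+7KC, with 66.3 in CD and 80.2 in WD (3.35). Slpi separated by diet, whereas for Sprr1a CD+7KC was the lowest library and CD and WD lay close together.

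Matrix and stellate cell genes with at least 1 FPKM were all above 0, and the CD+7KC library had the lowest sum. Of 21 genes with at least 1 FPKM, 21 were higher in WD+7KC and 7 above 1, with a median of 0.80, while in WD relative to CD 10 lay above 0 and 11 below it (median -0.03). For all genes in WD+7KC relative to CD+7KC, 48.3% lay above 0 and 6.21% above 1. The summed FPKM of all 22 listed genes was 276 in CD+7KC and 381 in WD+7KC, with 345 in CD and 343 in WD. Col1a1, the major fibrillar collagen, had 3.40 FPKM in CD+7KC and 9.52 in WD+7KC, with 8.23 in CD and 7.86 in WD (1.46, interval 1.26 to 1.72). Col1a2 had 5.25 and 11.6 FPKM, with 10.1 in CD and 11.1 in WD (1.13). The other 3 libraries lay close together for both collagens. Timp1, an inhibitor of matrix proteases, had 1.46 FPKM in CD+7KC and 5.19 in WD+7KC, with 4.14 in CD and 2.95 in WD (1.76). Tgfb1, the main profibrotic cytokine, had 3.06 FPKM in CD+7KC and 9.38 in WD+7KC (1.58), with 3.03 in CD and 3.97 in WD, so that WD+7KC alone stood out. The sinusoidal endothelial markers were higher in 15 of 15 in WD+7KC with a median of 0.73, and lower in 12 of 15 in WD relative to CD with a median of -0.22. Their summed FPKM was 181 in CD+7KC and 281 in WD+7KC, with 129 in CD and 105 in WD.

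Cell cycle genes were higher in 18 of 23, 6 above 1, with a median of 0.35, and in 22 of 23 with a median of 0.67 in WD relative to CD. The shares of all genes that were higher were 48.3% with 7KC and 49.6% without it, and 6.21% were above 1 with 7KC. Ccnd1, cyclin D1, had 6.57 FPKM in CD+7KC and 34.6 in WD+7KC, against 6.87 in CD and 24.8 in WD (2.38, interval 2.2 to 2.59). The replication helicase genes Mcm2 (1.02), Mcm5 (1.05) and Mcm6 (1.24) were also above 1, while the mitotic genes Mki67 (1.40 and 1.59 FPKM, 0.17) and Aurka (2.78 and 2.04, -0.43) were not. Tubb2b, a tubulin, had 0.316 FPKM in CD+7KC and 5.21 in WD+7KC (3.67).

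The gene with the lowest log2 fold change among genes of at least 5 FPKM and at least 200 bases was Cfd, adipsin or complement factor D (chr10:79890853-79892655). It had 63.2 FPKM in CD+7KC and 0.115 in WD+7KC, with 220.0 in CD and 1.47 in WD (-8.20), and the WD+7KC value rested on about 1.0 read. Car3, a carbonic anhydrase of fat and liver, had 3096 FPKM in CD+7KC and 778 in WD+7KC (-1.99; 3466 in CD and 1189.8 in WD). Both are also fat cell genes, and both separated by diet. Of the 8 fat tissue markers, 4 had at least 1 FPKM, 1 of them was above 1 (Fabp4, which macrophages also make, 66.5 and 143 FPKM) and 3 below -1. Adipoq had 0.0882 FPKM in CD+7KC and was listed at 0 in WD+7KC. Retn had 0.241 FPKM in CD+7KC, 1.21 in CD and 0 in both WD libraries.

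Some large differences lie in genes that share reads with a near copy, and they shrink in the sum. Tgoln2 had 25.4 FPKM in CD+7KC and was listed at 0 in WD+7KC, while Tgoln1 had 66.4 and 69.8 and the pair together 91.8 and 69.8. BC002163 had 127 FPKM in CD+7KC and 1.49 in WD+7KC, but together with Ndufs5 the pair had 166 and 137. Hbb-bs had 0.00593 FPKM in CD+7KC and 10.4 in WD+7KC, and the β-globin entries Hbb-b1, Hbb-b2 and Hbb-bs together 82.9 and 91.1. The split of reads between such genes, and so each single value, is uncertain.

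The diet comparison without 7KC gave smaller counts among the same 11137 genes, with 329 above 1 (2.95%) and 246 below -1 (2.21%). In it, 49.6% of genes were higher and 50.2% lower. These genes were selected by their FPKM in CD+7KC and WD+7KC only, so the counts of the 2 comparisons are not like for like. By the same limit, 10860 genes would be selected from CD and WD, and no counts were made on that set. Of the 692 genes above 1 with 7KC in both diets, 580 (83.8%) had the same direction without it and 185 were above 1 there too (26.7% of the 692 and 56.2% of the 329). Of the 351 below -1, 294 (83.8%) had the same direction and 136 were below -1 (38.7% of the 351 and 55.3% of the 246). The opposite threshold was passed by 15 and 11 genes. Across the 11137 genes the 2 log2 fold changes had a Spearman correlation of 0.52, a description over genes that are not independent of each other, from 2 pairs with no library in common. Both WD libraries were at least 2-fold above both CD libraries for 103 genes (0.925%) and at least 2-fold below for 104 (0.934%). The plot of both comparisons shows these genes in the upper right and lower left.

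**Figure D5:**
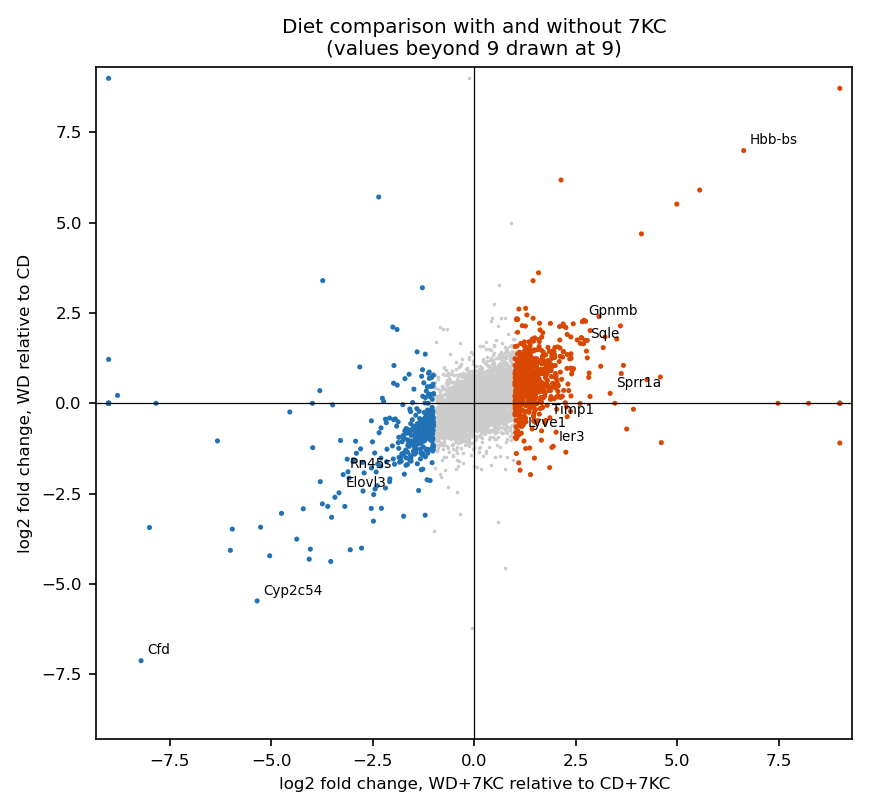
Each point is 1 of 11137 genes, with the log2 fold change of WD+7KC relative to CD+7KC on the x axis and of WD relative to CD on the y axis; orange marks genes above 1 and blue genes below -1 on the x axis, and values beyond 9 are drawn at 9. Cfd and Cyp2c54 lie low on both axes, while Timp1, Lyve1 and Ier3 are above 0 on the x axis and below 0 on the y axis.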

How the data were processed

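Total RNA of ob/ob mouse liver was prepared as stranded mRNA libraries (TruSeq) and sequenced in single-end mode, with 1 library per group. Per the submitters' processing notes, reads were mapped to mm10 with TopHat2 2.0.13, Bowtie2 2.2.3 and SAMtools 0.1.19, and the authors computed FPKM with Cufflinks 2.2.1; the deposited tables give 1 FPKM value for each gene symbol. The annotation and the Cufflinks options are not given in the sources used here, nor is the way Cufflinks divided reads between near-identical genes, which affects single members of such families. All columns of per-sample values were used.

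Log2 fold changes used a pseudocount of 0.1 for genes with at least 1 FPKM in either of the 2 libraries compared, with thresholds of 1 and -1. No test was run, since each group had 1 library. Low FPKM values fall on steps of whole reads, and read numbers were estimated from those steps over 15119 genes with transcript length minus 200 bases. Between 74.5% and 75.8% of low values came within 0.1 of a whole read. Exact 95% intervals were given for genes with a single RefSeq transcript. No fold was given for a gene listed at 0 or with at most 3 estimated reads in both libraries.

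By rule, the text names the 12 most increased and the 12 most decreased genes. These were ranked among genes with at least 5 FPKM and a transcript of at least 200 bases. The rule also takes the highest and the lowest member of each of 46 gene lists, and the qRT-PCR genes. Not every such gene is printed. All other genes named, among them Nr1i3, Nr1i2, Cyp2c67 and Cyp2c68, were chosen after their values were seen. The genes, the lists and the comparison were chosen with earlier results of these data known. Coordinates came from GENCODE vM21 (GRCm38) and promoters from RefSeq (GRCm38.p6). The alternatives were other pseudocounts, 4 other scalings, other filters and thresholds. The code was tested on simulated data. The software was Biopython 1.88, matplotlib 3.10.9, numpy 2.4.6, pandas 2.3.3, scipy 1.17.1 and Python 3.11.15.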

Additional observations from a re-analysis of the deposited data

Results flagged for a closer look

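The values below stood out because the diet comparison went one way with 7KC in both diets and the other way without it. Each rests on 1 library per group, and the differences were not tested. The sinusoidal endothelial markers, which mark the fenestrated vessels of the liver lobule, were at a list median of 0.73 on the log2 scale when both diets held 7KC and at -0.22 when neither did. Lyve1, a hyaluronan receptor of these vessels, had 1.16 and -0.83, with 7.11 FPKM in CD+7KC, 16.0 in WD+7KC, 9.82 in CD and 5.49 in WD. Timp1 had 1.76 with 7KC and -0.47 without it. Ier3, an immediate early gene, had 1.91 and -1.22, on about 7.3 reads in CD+7KC, 33.5 in WD+7KC, 24.1 in CD and 8.4 in WD. Hmox1, which degrades heme, had 0.78 and -1.08, with 19.3 FPKM in CD+7KC, 33.1 in WD+7KC, 42.4 in CD and 19.9 in WD. Tnf had 1.12 and -0.76, all values under 1 FPKM, on about 2.0 and 6.9 reads in CD+7KC and WD+7KC. Its reads in CD and WD were about 5.1 and 2. Mylpf, a muscle light chain and the one muscle marker at 1 FPKM or more, had 1.42 and -0.71. It rested on about 3.1 and 10.3 reads in CD+7KC and WD+7KC, and 8.2 and 4.1 in CD and WD. With so few reads, the direction of Tnf and Mylpf without 7KC is uncertain.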

How the results depend on the processing

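With the deposited values, 692 genes were above 1 and 351 below -1 in WD+7KC relative to CD+7KC, with a median of -0.02. A pseudocount of 1 left 316 and 225. Genes with at least 5 FPKM gave 254 and 208, and no filter on low values gave 1274 and 733 of 15898 genes. A threshold of 0.6 gave 1471 and 940, and a threshold of 2 gave 98 and 87. The median of all genes was 0.19 after rescaling to equal sums and 0.18 after the same without the 20 genes of highest FPKM. The median of the female-biased genes was 0.42 among members with at least 5 FPKM, against -0.96 in the comparison as reported. For these values the cause was not tested, apart from the filters and thresholds, which count other genes by construction. Leaving out the cell type marker lists, an alternative chosen after seeing the data, gave 647 and 350. Of 368 list medians under alternative settings 22 changed sign, 1 of them in the 17 lists with a median of at least 0.5 in size. None of the 85 named genes past 1 changed sign in 755 values, and 9 values fell within 1. No paired analysis was possible because each group had 1 library. With about 11 or 12.1 reads per kilobase at 1 FPKM, genes near 1 FPKM rest on few reads, and no setting replaces the missing replicates.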

Other observations

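Lists of glucose metabolism and cell stress genes had medians between -0.26 and 0.31. G6pc, the last enzyme of glucose release, had 183 FPKM in CD+7KC and 67.5 in WD+7KC, with 182 in CD and 144 in WD (-1.44, interval -1.52 to -1.36). Of 21 gluconeogenesis and glycolysis genes 13 were higher, with a median of 0.11. Nuclear-encoded subunits of respiratory complex I were lower in 32 of 36 with a median of -0.18 and 0.03 after rescaling to equal sums, so their direction depends on the scaling. The exception above 1, Ndufs5, shares reads with BC002163. Autophagy genes were lower in 20 of 25 with a median of -0.12 (0.09 after rescaling), and none passed 1 in either direction. Circadian clock genes were lower in 13 of 15 with a median of -0.26, and none passed 1. Unfolded protein response genes were higher in 15 of 20 with a median of 0.13, heat shock chaperones in 9 of 14 with a median of 0.09, and p53 response genes in 8 of 13 with a median of 0.31, which was -0.15 among members with at least 5 FPKM. NRF2 targets and metallothioneins were lower in 11 of 14 with a median of -0.17 (0.03 after rescaling), led by Gsta2 (164 and 59.1 FPKM, -1.47). Immediate early genes were lower in 9 of 15 with a median of -0.10 (0.10 after rescaling) and in 15 of 15 with a median of -0.51 in WD relative to CD, and Fos had 7.71 FPKM in CD+7KC and 2.22 in WD+7KC (-1.75).

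Fatty acid uptake and binding genes were higher in 9 of 14 with a median of 0.26, and 3 were above 1 (Fabp4, Fabp5 and Lpl), all of them genes that macrophages also make. Pericentral genes were lower in 9 of 13 with a median of -0.15 (0.05 after rescaling). Of 5 hemoglobin and erythroid genes with at least 1 FPKM, 3 were higher, with a median of 0.36 (0.81 in WD relative to CD). The 3 included Hbb-bs, for which the split of reads is uncertain. Hba-a1, an α-globin, had 54.5 FPKM in CD+7KC and 70.0 in WD+7KC (0.36). The lowest was Alas2, the erythroid enzyme that starts heme synthesis, with 81.3 FPKM in CD+7KC and 23.3 in WD+7KC, against 86.5 in CD and 30.9 in WD (-1.80). Calcium-binding S100 genes chosen after their values were seen were higher: S100a11 had 106 FPKM in CD+7KC and 411 in WD+7KC (1.96), S100a6 had 2.47 and 10.4 (2.03), and S100a4 had 1.55 and 7.88 (2.27). S100a11 separated by diet, with 131 in CD and 350.3 in WD, whereas for S100a4 and S100a6 the CD+7KC library alone was low, at 6.23 and 8.33 FPKM in CD and 5.79 and 7.42 in WD.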
